A study of Homo sapiens with 12 samples.

Results

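The mitochondrial ribosomal proteins of DLD1 cells were taken as the protein-coding genes of the deposited expression table whose symbol starts with MRPL or MRPS followed by a digit. They numbered 78 of 19847 protein-coding genes and of 58302 genes listed, with 49 MRPL and 29 MRPS genes. DLD1 is an established human colorectal cancer cell line, used here at passage 5 and carrying a short hairpin RNA against NAT10 (shNAT10) or a control hairpin (shNC). NAT10 is the acetyltransferase that makes N4-acetylcytidine (ac4C) in RNA. The 12 libraries formed 4 groups of 3: ac4C immunoprecipitates and inputs of shNAT10 cells, and the same of shNC cells. Gene levels in FPKM, a unit that corrects fragment counts for gene length and sequencing depth, were available for the 6 input libraries, and the immunoprecipitates entered through the authors' table of differential ac4C peaks. The labels do not say which hairpin sequence was used or whether replicates were separate cultures, so spread is that between libraries and may be technical.

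Mitochondria carry a ribosome of their own, which translates the few mRNAs of the mitochondrial genome into core subunits of the respiratory chain. Its RNA is encoded in the mitochondrial genome, whereas all of its proteins are encoded in the nucleus, made in the cytosol and imported. Some of these proteins have a counterpart in the bacterial ribosome, and others, with names such as mL41 and mS34 in the uniform nomenclature, were gained by the mitochondrial ribosome. MRPL genes were named for the large subunit, which joins amino acids, and MRPS genes for the small subunit, which reads the mRNA. MRPS18A and MRPS30 are exceptions, since their proteins (mL66 and mL65) sit in the large subunit. MRPS36 is another, since its protein (KGD4) belongs to the oxoglutarate dehydrogenase complex.

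The genes lay on 21 chromosomes, with 77 of 78 matched to a RefSeq gene. Promoter windows of 300 bases, from 250 before to 50 after the gene start, were at hand for 69 of them in RefSeq (GRCh38.p14). Genes of the mitochondrial ribosome are scattered over the genome, and the windows were searched for letters that members might share. Shown are the upstream stretches of 4 members chosen because they hold the ETS motif: MRPS18A, the most abundant member, MRPL51 and MRPL43, abundant genes of the large subunit, and MRPL20, which carries an ac4C peak. MRPL41, with the highest input difference, is set beside them as one of the 39 members without that motif. They are printed 5′ to 3′ on the gene's strand and end at the base before the gene start. Capitals mark the ETS family motif CCGGAAG or its reverse CTTCCGG. MRPS18A lies at chr6:43687792-43688041, MRPL51 at chr12:6493263-6493512, MRPL20 at chr1:1407294-1407543 and MRPL43 at chr10:100987498-100987542, all on the minus strand. MRPL41 lies at chr9:137551629-137551878 on the plus strand. The MRPL43 stretch holds 45 bases, up to the neighbouring gene TWNK.
MRPS18A: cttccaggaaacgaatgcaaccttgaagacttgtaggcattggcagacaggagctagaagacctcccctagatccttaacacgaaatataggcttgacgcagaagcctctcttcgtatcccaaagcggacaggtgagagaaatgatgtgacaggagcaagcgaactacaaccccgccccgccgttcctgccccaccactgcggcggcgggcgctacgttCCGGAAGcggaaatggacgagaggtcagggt
MRPL51: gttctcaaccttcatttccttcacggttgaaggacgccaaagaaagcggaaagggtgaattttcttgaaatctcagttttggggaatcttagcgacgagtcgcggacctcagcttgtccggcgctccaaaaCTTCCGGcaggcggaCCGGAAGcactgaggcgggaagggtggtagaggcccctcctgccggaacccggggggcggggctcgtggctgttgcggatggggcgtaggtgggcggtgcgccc
MRPL20: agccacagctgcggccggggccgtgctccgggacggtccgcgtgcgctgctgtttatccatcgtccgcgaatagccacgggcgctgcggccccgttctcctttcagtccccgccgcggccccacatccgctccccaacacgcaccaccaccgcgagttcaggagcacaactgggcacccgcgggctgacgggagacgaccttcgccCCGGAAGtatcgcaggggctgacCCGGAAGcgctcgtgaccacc
MRPL43: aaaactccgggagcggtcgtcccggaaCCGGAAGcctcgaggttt
MRPL41: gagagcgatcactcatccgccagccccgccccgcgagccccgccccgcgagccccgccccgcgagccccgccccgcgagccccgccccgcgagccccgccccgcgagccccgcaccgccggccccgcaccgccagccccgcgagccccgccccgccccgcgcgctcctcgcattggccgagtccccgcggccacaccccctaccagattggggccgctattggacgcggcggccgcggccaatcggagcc

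The ETS motif was present once in the MRPS18A and MRPL43 stretches and 2 times in those of MRPL51 and MRPL20. The MRPL41 stretch held CCAAT 4 times, counting both strands, and no other motif searched. ETS factors include GABP, known as nuclear respiratory factor 2, which binds promoters of many nuclear genes for mitochondrial proteins. Across members, 30 of 69 genes (43.5%) had CCGGAAG on either strand, against 16.5% of 15843 protein-coding genes and 12.2% of all 27305 genes with a promoter. The YY1 motif ATGGCGG was present in 24 members (34.8%), against 9.15% of protein-coding genes. The NRF-1 core TGCGCA was present in 15 (21.7%), against 12.7%. At least one of these was present in 53 members (76.8%), against 32.0% of protein-coding genes. The opposite held for CCAAT, with 23 members (33.3%) against 42.1%, and for the TATA box TATAAA, with 3 members (4.35%) against 12.4%. Both strands were searched, no pair of motifs was barred from overlapping, and the 5 motifs were chosen after shares of several had been seen. The shares count genes, and some genes had several windows, which gives more room for a motif. They describe letters in windows and were not tested. Members with the ETS motif had a median mean level of 10.8 FPKM (30 genes), against 7.35 FPKM in those without it (39 genes), and members with the YY1 motif 4.81 FPKM (24 genes) against 9.84 FPKM (45 genes).

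**Figure D1:**
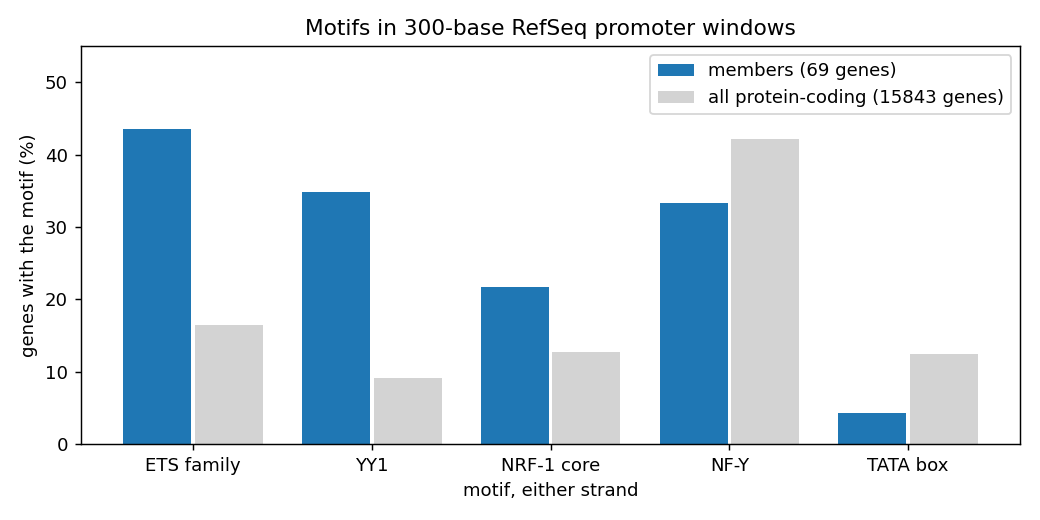
Share of genes (vertical axis, %) with each of 5 motifs on either strand (horizontal axis) in RefSeq promoter windows of 300 bases, for 69 members (blue) and 15843 protein-coding genes (grey). The ETS motif was present in 43.5% of members against 16.5%, and the TATA box in 4.35% against 12.4%. NF-Y stands for the CCAAT box.

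The libraries were shallow, and those labelled shNAT10 more so. Whole fragments recovered from the FPKM values summed over genes to 1207110 to 1284083 in the libraries labelled shNAT10 and to 2599039 to 2715604 in shNC libraries. The FPKM denominators inferred from the same values were 1389633, 1498313 and 1197889 against 3383204, 3284599 and 3426872. In shNAT10 replicate 3 the recovered sum exceeded the denominator, so recovered fragments are estimates. Genes above 0 numbered 6348, 6435 and 8117 against 8449, 8340 and 8682. No counting tool is given in the sources used here, so whether copies made by PCR were counted is not known. If they were, counting error is a lower bound on the error. Epithelial markers of DLD1 summed to 8177 to 8706 FPKM in the libraries labelled shNAT10 and to 5247 to 5364 FPKM in shNC, with all 8 genes above 0 in some library. The sum rested on the keratins KRT8, KRT18 and KRT19, whereas EPCAM stood at 38.3, 80.3 and 128 FPKM against 226, 370 and 262 FPKM, with groups apart the other way, and the other 4 markers overlapped. Fibroblast and muscle markers summed to 9.62 to 68.9 FPKM against 0 to 3.81 FPKM, with 7 of 7 above 0 in some library. TAGLN made up the sum in shNAT10 replicate 1, at 68.9 FPKM, and ACTA2 most of it in shNAT10 replicate 2, at 22.0 FPKM. COL1A1, COL1A2, COL3A1, DCN and LUM stayed at or below 3.18 FPKM in every library. Leukocyte markers stayed at or below 2.29 FPKM in sum, with 3 of 5 at 0 in every library, and erythroid markers at 0. Endothelial markers stayed at or below 0.241 FPKM in sum and neural markers at or below 3.29 FPKM. In bulk RNA, fewer cells of a type and less RNA per cell cannot be told apart. The part of these markers in the results was not tested.

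NAT10 itself did not follow its label. Its level was 0, 28.1 and 31.4 FPKM in the libraries labelled shNAT10 and 1.24, 3.95 and 2.89 FPKM in shNC, from 0, 221 and 197 fragments and from 22, 68 and 52 fragments. The libraries labelled shNAT10 were thus above every shNC library in 2 cases and below in 1. The difference was 1.48 ± 1.86 on the log2(FPKM + 1) scale (SE; 95% interval -2.18 to 5.15; limma adjusted p = 0.754; exact two-sided permutation p = 0.4, with 0.1 the smallest possible for 3 against 3). It ran from 0.62 without shNAT10 replicate 3 to 3.13 without shNAT10 replicate 1, and was 0.44 by voom on recovered fragments. Differences are given as the libraries labelled shNAT10 minus shNC.

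The mitochondrial ribosome was detected in part in each library. Of the 78 members, 71 (91.0%) were above 0 in at least 1 input library, against 57.7% of protein-coding genes. Only 11 (14.1%) were above 0 in all 6, against 10.0% of protein-coding genes. These 11 were MRPL11, MRPL24, MRPL37, MRPL43, MRPL49, MRPL51, MRPS7, MRPS15, MRPS18A, MRPS22 and MRPS35. Members above 0 numbered 40, 34 and 46 in the libraries labelled shNAT10 and 46, 43 and 55 in shNC. MRPL38, MRPL46, MRPL53, MRPS17, MRPS21, MRPS24 and MRPS36 were listed at 0 in all 6 libraries, and 11 more were above 0 in only 1. Of 46 members classed by uniform name as having a bacterial counterpart, 4 were above 0 in all 6 libraries. Of 31 classed by name as mitochondrial, 7 were. MRPS18A and MRPS18B were counted among the 31, although their symbols place them with MRPS18C (bS18m), which was among the 46. These counts thus follow names and do not show which members lack a bacterial relative.

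**Figure D2:**
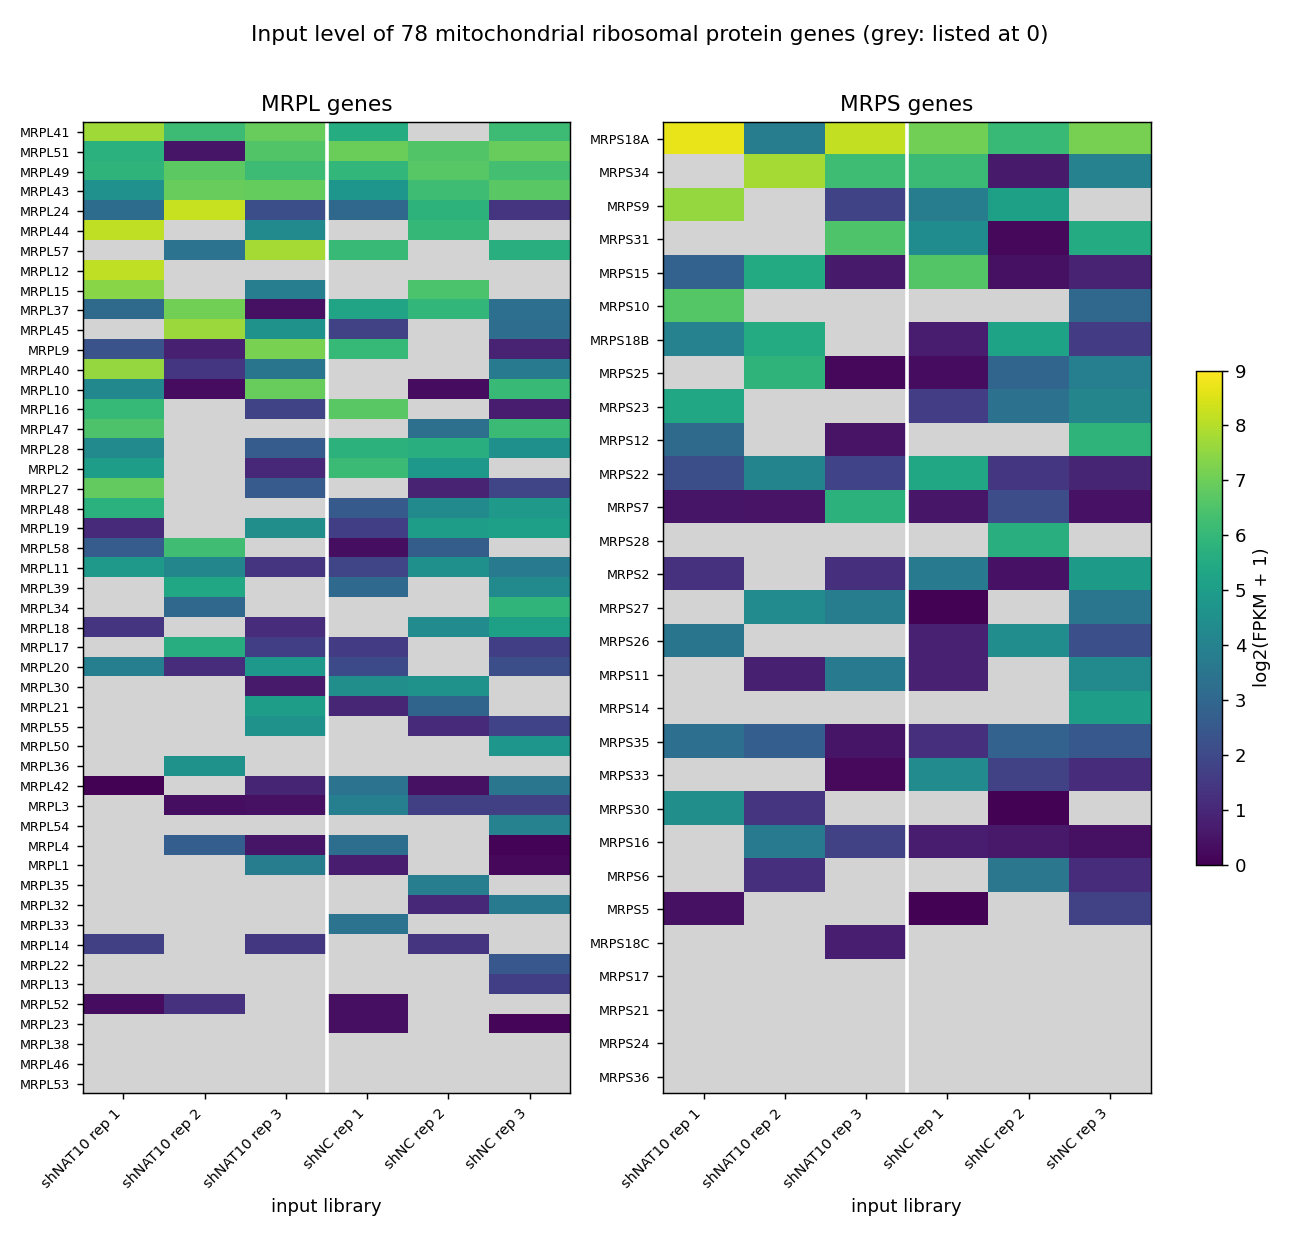
Input level of the 78 members (rows, ordered by mean level within MRPL and MRPS) in the 6 libraries (columns, shNAT10 left of shNC), coloured by log2(FPKM + 1), with grey for genes listed at 0. The 11 members above 0 in all 6 libraries are the rows with no grey, and 7 rows are grey throughout.

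Summed over the members, the level was 2528, 1597 and 1632 FPKM in the libraries labelled shNAT10 and 1158, 1013 and 1281 FPKM in shNC. The groups did not overlap, yet the sum leaned on few genes. The 3 highest members of a library gave 38.3%, 45.2% and 40.0% of it in the libraries labelled shNAT10, against 31.2%, 27.7% and 28.4% in shNC. Without those 3, the sums overlapped, at 1559, 875 and 979 FPKM against 797, 732 and 917 FPKM. As a share of all FPKM the sums overlapped too, at 0.437%, 0.287% and 0.229% against 0.224%, 0.190% and 0.273%. As a share of recovered fragments, members above 0 in more than 1 library held 0.481%, 0.421% and 0.346% against 0.345%, 0.282% and 0.378%. The 11 members above 0 in only 1 library were left out of these fragment shares. As a share of the FPKM of protein-coding genes, the sums over all members did not overlap, at 1.18%, 0.835% and 0.716% against 0.621%, 0.546% and 0.697%. By the subunit in which the protein sits, the 51 members of the large subunit summed to 2147, 1177 and 1378 FPKM against 881, 830 and 1020 FPKM, with groups apart. The 26 of the small subunit summed to 382, 420 and 253 FPKM against 276, 182 and 261 FPKM, with overlap. By name, MRPL genes summed to 1714, 1163 and 1091 FPKM against 748, 765 and 877 FPKM, and MRPS genes, MRPS18A included, to 814, 434 and 540 FPKM against 410, 248 and 403 FPKM. The FPKM of all genes also summed higher in the libraries labelled shNAT10, at 577918, 556564 and 712302 against 517723, 532596 and 468920. Sums by subunit and by name were not taken as shares of these totals, so groups apart there may reflect the totals.

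Single members changed from replicate to replicate by far more than the sums. Of 35 members with at least 100 fragments in one library labelled shNAT10, 22 (62.9%) were at 0 in another of that group, against 47.0% of protein-coding genes. In shNC the count was 19 of 40 (47.5%), against 40.7%. The member counts leave out the 11 members above 0 in only 1 library, whereas the protein-coding shares keep such genes. Members and protein-coding genes are thus not compared like for like here. Across the 78 members, log2 levels correlated at 0.06 to 0.29 between libraries of the same group and at 0.17 to 0.47 between libraries of different groups, with medians of 0.27 and 0.26. These correlations are across genes, which are not independent replicates. MRPL12 (bL12m), the stalk protein that binds translation factors, was at 279, 0 and 0 FPKM in the libraries labelled shNAT10 and at 0 in all shNC libraries. It and MRPL10 were chosen after their values were seen.

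In the large subunit, MRPL49 (mL49) varied little between libraries. It stood at 57.0, 104 and 71.8 FPKM in the libraries labelled shNAT10 and at 60.9, 100 and 78.2 FPKM in shNC, from 244, 481 and 265 fragments and from 635, 1015 and 825. The highest library was 1.83 times the lowest in the first group and 1.65 times in the other, and the groups overlapped. The difference was -0.054 ± 1.17 (SE; limma adjusted p = 0.992). MRPL43 (mL43) stood at 22.4, 119 and 116 FPKM against 25.4, 73.0 and 102 FPKM, and replicate 1 was lowest in both groups. MRPL51 (mL51) stood at 53.4, 0.430 and 93.1 FPKM against 125, 93.8 and 120 FPKM, so every library labelled shNAT10 lay below every shNC library. Its lowest value rested on 1 fragment, and its difference of -2.54 ± 1.36 did not pass (limma adjusted p = 0.754). Without shNAT10 replicate 2 it was -0.66.

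MRPL41 (mL41) had the highest positive difference. It stood at 212, 70.9 and 118 FPKM in the libraries labelled shNAT10 and at 46.1, 0 and 71.0 FPKM in shNC. The lowest library labelled shNAT10 lay just below the highest shNC library. The difference was 3.02 ± 1.39 (SE; 95% interval 0.28 to 5.76; unadjusted p = 0.0308; limma adjusted p = 0.754), and without shNC replicate 2 it was 1.07. MRPL28 (bL28m) lay at the other end, at 18.3, 0 and 5.21 FPKM against 53.6, 49.6 and 22.1 FPKM, with groups apart and a difference of -3.02 ± 1.69 (limma adjusted p = 0.754), which was -1.87 without shNAT10 replicate 2 and -4.004 without shNAT10 replicate 1. MRPL3 (uL3m) stood at 0, 0.246 and 0.307 FPKM against 13.9, 2.24 and 2.26 FPKM. MRPL24 (uL24m) stood at 8.07, 302 and 3.45 FPKM against 7.15, 55.5 and 1.55 FPKM, and replicate 2 was highest in both groups. MRPL37 (mL37) stood at 7.62, 134 and 0.328 FPKM against 37.6, 61.3 and 8.82 FPKM, and its highest library was also replicate 2 in both groups. MRPL11 (uL11m), at the base of the factor-binding stalk, stood at 27.2, 16.6 and 1.64 FPKM against 2.68, 22.2 and 11.6 FPKM, with overlap.

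Among MRPS genes, MRPS18A had the highest mean level of all members. It stood at 411, 12.99 and 287 FPKM in the libraries labelled shNAT10 and at 134, 65.2 and 143 FPKM in shNC, from 734, 25 and 442 fragments and from 581, 275 and 628. Replicate 2 was lowest in both groups, and the difference was 0.13 ± 1.07 (SE; limma adjusted p = 0.979). MRPS34 (mS34) stood at 0, 219 and 72.3 FPKM against 69.8, 0.555 and 14.9 FPKM. MRPS9 (uS9m), whose bacterial relative reaches toward the P site, stood at 189, 0 and 2.62 FPKM against 12.7, 34.0 and 0 FPKM. MRPS31 (mS31) stood at 0, 0 and 90.005 FPKM against 19.6, 0.143 and 45.6 FPKM. Each of these 3 was near or at 0 in at least 1 library of either group.

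MRPS15 (uS15m), a protein that binds small-subunit RNA in bacteria, stood at 6.17, 43.9 and 0.573 FPKM in the libraries labelled shNAT10 and at 96.4, 0.313 and 0.801 FPKM in shNC. MRPS33 (mS33) stood at 0, 0 and 0.159 FPKM against 19.2, 2.43 and 1.22 FPKM, with groups apart and a difference of -2.35 ± 1.71 (limma adjusted p = 0.754). MRPS7 (uS7m), of the small subunit's head, stood at 0.433, 0.402 and 54.0 FPKM against 0.445, 3.39 and 0.351 FPKM. MRPS22 (mS22) stood at 3.48, 15.9 and 2.48 FPKM against 39.9, 1.70 and 0.922 FPKM, and MRPS35 (mS35) at 8.73, 5.40 and 0.422 FPKM against 1.34, 6.15 and 4.57 FPKM. Both overlapped between groups, with differences of 0.10 and -0.026. Within a group, the highest library exceeded the lowest by up to 498 times (MRPL10 in the libraries labelled shNAT10) among members above 0 in all 3.

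**Figure D3:**
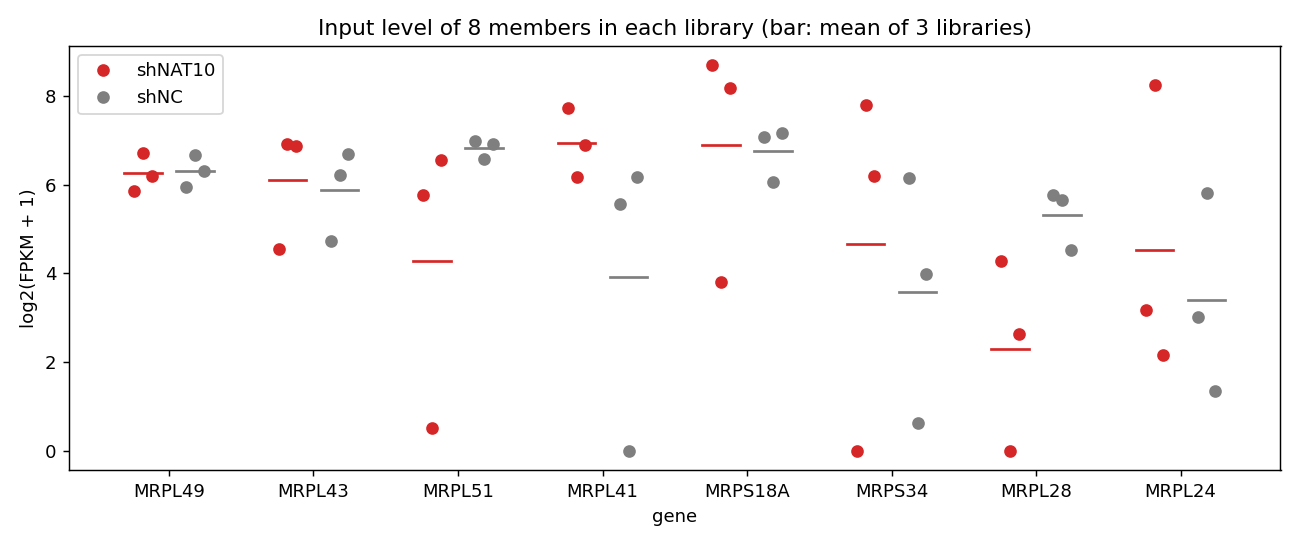
Input level (vertical axis, log2(FPKM + 1)) of 8 members in each library, shNAT10 (red) left of shNC (grey), with bars at the mean of 3 libraries. MRPL49 lay at 57.0 to 104 FPKM in all 6 libraries, whereas MRPS18A ran from 12.99 to 411 FPKM.

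Of the 78 members, 64 had a mean of at least 1 FPKM and entered the limma fit on 10517 genes, 41 MRPL and 23 MRPS. None passed at an adjusted p under 0.05, and the lowest limma adjusted p of a member was 0.754. Of all tested genes 20 (0.19%) passed, but 0 of the 8140 tested protein-coding genes did. The lowest limma adjusted p of a protein-coding gene was 0.134, so members did not differ from that class in calls. Voom on recovered fragments also called 0 members. At an unadjusted p under 0.05, 1 member passed (MRPL41), against 3.7% of all tested genes. Differences were above 0 in 31 members and below 0 in 33, from -3.02 (MRPL28) to 3.02 (MRPL41). The median was -0.040 over members, against -0.47 over the 8140 tested protein-coding genes and -0.49 over all tested genes. It was -0.054 in MRPL and -0.026 in MRPS genes, and quantile normalization turned both, to 0.063 and 0.33, while the all-gene median moved to -0.08. On the TPM scale the medians were -0.16 in MRPL, -0.27 in MRPS and -0.74 over all genes. The gap to all genes was wide in some other settings and narrow in others. With a pseudocount of 0.1 the medians were -0.15 in MRPL, -0.19 in MRPS and -0.78 over all genes. By voom on recovered fragments they were -0.067 in MRPL, 0.052 in MRPS and -0.53 over all genes. Without a filter the medians were -0.059 in MRPL and -0.15 over all genes. Without shNC replicate 2 they were -0.32 in MRPL, -0.36 in MRPS and -0.40 over all genes, and without shNAT10 replicate 1 they were -0.68 in MRPS and -0.71 over all genes. The typical SE of a member was 1.83 on the log2 scale, so changes of a few-fold could not be told from the spread at this depth. No member was higher in all 3 libraries labelled shNAT10 than in all 3 of shNC, where 2.89% of tested genes were. The reverse held for 4 members (MRPL3, MRPL28, MRPL51 and MRPS33), beside 6.72% of tested genes.

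**Figure D4:**
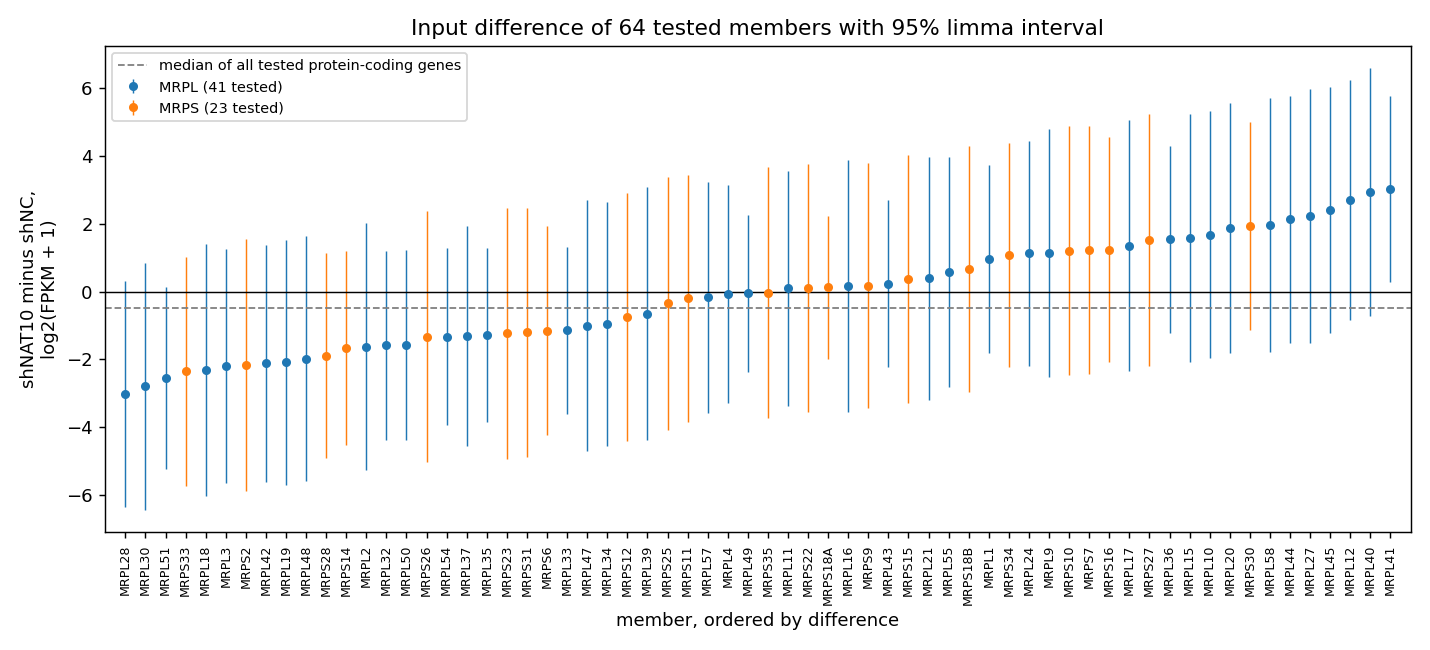
Difference between the libraries labelled shNAT10 and shNC (log2(FPKM + 1), vertical axis) for the 64 tested members, with the 95% limma interval, MRPL in blue and MRPS in orange. Differences ran from -3.02 to 3.02, and the dashed line is the median of the tested protein-coding genes, -0.47.

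In the authors' deposited table, 13 of 2364 differential ac4C peaks carried a member's symbol, in 12 genes. That is 12 of the 71 members above 0 (16.9%), against 15.4% of protein-coding genes above 0, so members held about the common share. The table gives a fold enrichment and a log2 change between hairpins, and which hairpin is its numerator, the peak caller and any pooling of replicates are not stated in the sources used here. Folds, log2 changes and FDRs of peaks are the authors' own. Positions were read as GRCh38. The log2 change was below 0 in 9 of 13 member peaks (69.2%), against 61.7% of all peaks. By name, 7 of 7 MRPS peaks and 2 of 6 MRPL peaks were below 0. By the subunit in which the protein sits, 6 of 6 small-subunit and 3 of 7 large-subunit peaks were. The median fold enrichment was 5.79, against 10.5 over all peaks.

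The largest change below 0 was in MRPS18A, at chr6:43675493-43678542 on the minus strand, in coding sequence, with a fold of 5.38 and a log2 change of -6.15. MRPS6 (bS6m) had a peak at chr21:34125391-34142706, of fold 10.2 and log2 change -5.27, whose FDR of 3.98e-36 was the lowest among members. MRPS9 had a peak of fold 5.79 and log2 change -5.19 at chr2:105049255-105080002. The other 6 below 0 lay in the coding sequence or exons of MRPS18B (log2 change -4.02), MRPS11 (-3.76), MRPL9 (-3.52), MRPS15 (-3.08) and MRPS35 (-1.77) and at the start of MRPL42 (-2.84). The MRPS35 peak had the weakest FDR, 0.0275. Input levels of MRPS6 were low, at 0, 1.40 and 0 FPKM in the libraries labelled shNAT10 and 0, 10.98 and 1.22 FPKM in shNC.

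The 4 peaks above 0 had the highest folds. MRPL18 (uL18m) had a peak of fold 224 and log2 change 7.81 at chr6:159791086-159797425, and MRPL42 (mL42) a second one, of fold 180 and log2 change 8.41, in its 3′ untranslated region at chr12:93506803-93506983. MRPL20 (bL20m), a protein needed early in assembly of the bacterial large subunit, had a peak of fold 96.4 and log2 change 6.88 at chr1:1402058-1402238. A peak listed under MRPL33 (bL33m) had a fold of 33.5 and a log2 change of 7.32, but lay at chr2:27894649-27988028, 122930 bases past the start of RefSeq MRPL33 and within BABAM2. By RefSeq its gene assignment is therefore doubtful, and the gene models used by the authors were not compared. MRPL33 was at 0 in 5 of 6 inputs and BABAM2 in all 6, so input levels do not settle the assignment. All 4 had a fold of at least 10, against 1 of the 9 below 0. Over all deposited peaks, 63.98% of those above 0 and 43.9% of those below 0 did, so fold and sign went together in the whole table.

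Input levels of genes with a deposited peak, on either side of 0, were uneven between libraries. MRPL18 stood at 1.57, 0 and 1.21 FPKM in the libraries labelled shNAT10 and at 0, 19.0 and 33.3 FPKM in shNC. MRPL20 stood at 13.7, 1.20 and 26.6 FPKM against 3.07, 0 and 3.45 FPKM. Both sets of values overlapped, and neither gene passed. MRPL42 stood at 0.0439, 0 and 0.917 FPKM against 9.86, 0.316 and 10.4 FPKM, and MRPL9 (bL9m) at 3.97, 0.737 and 146 FPKM against 64.8, 0 and 0.805 FPKM. MRPS11 (uS11m) stood at 0, 0.712 and 12.5 FPKM against 0.788, 0 and 18.4 FPKM, and MRPS18B (mS40), a relative of MRPS18A, at 14.9, 45.2 and 0 FPKM against 0.626, 36.1 and 2.01 FPKM. In MRPL42, MRPL9, MRPS11 and MRPS18B the groups overlapped as well.

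MRPL42 is the member with 2 peaks. The one at its start, at chr12:93467518-93479464, had a fold of 9.79 and a log2 change of -2.84 over 5 blocks and 450 bases, and the one near its end was above 0. The first 30 bases of that first block, at chr12:93467518-93467547 on the plus strand, begin 4 bases after the gene start and hold the YY1 motif in capitals, with 4 cytidines, the base that NAT10 acetylates.
MRPL42: aaacaagATGGCGGgttcgtggtgagaagc

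Over all 13 member peaks, 5 (38.5%) held a site of the authors' motif, against 62.6% of all peaks. By class, 6 lay in coding sequence (46.2%, against 59.5% of all peaks) and 5 in the class exon (38.5%, against 15.4%). 9 of 13 had more than 1 block (69.2%, against 50.6%). Members with a peak had a median mean level of 8.60 FPKM in inputs, against 8.62 FPKM without one. The 66 without one included the 7 members at 0 in every library, whereas the lowest mean with a peak was 1.63 FPKM. The medians are thus not of like sets. The median input difference was 0.050 over the 12 tested members with a peak and -0.059 over the 52 without.

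**Figure D5:**
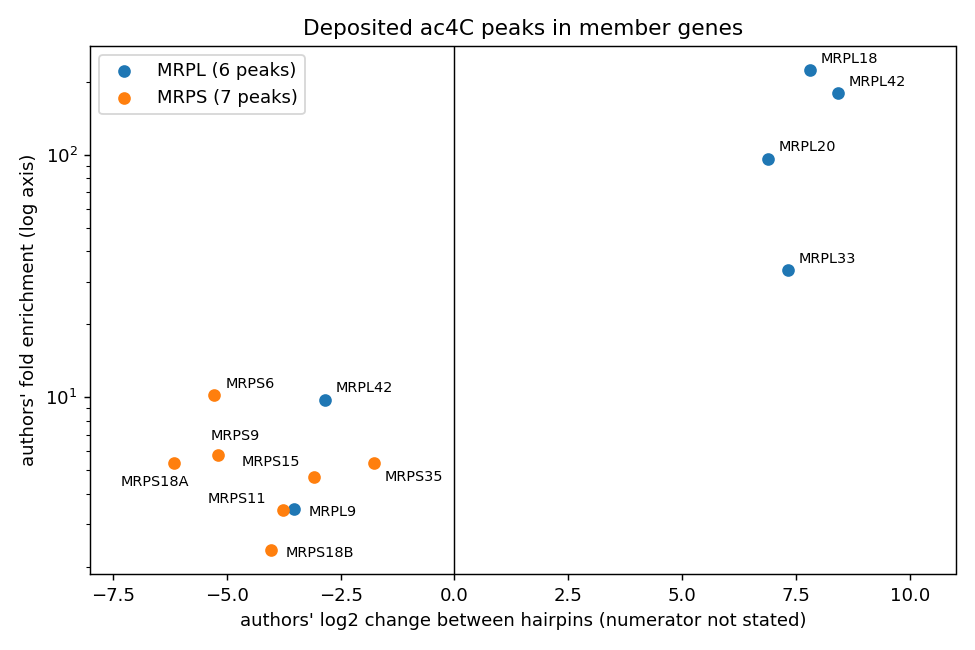
The authors' log2 change (horizontal axis) and fold enrichment (vertical axis, log scale) of the 13 deposited peaks in members, MRPL in blue and MRPS in orange. The 4 peaks above 0, in MRPL18, MRPL42, MRPL20 and under MRPL33, had folds of 33.5 to 224, and the 9 below 0 had folds of 2.34 to 10.2.

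Counting limits apply to several members. Named pseudogenes exist for 34 members, 75 in all, of which 1 was above 0 (MRPL45P2, at 11.5 FPKM in shNC replicate 3). The RefSeq spans of 18 members overlap another coding gene, and the strandedness of the counting is not given in the sources used here. The MRPS18A span overlaps RSPH9, which was at 0, 0 and 5.39 FPKM in the libraries labelled shNAT10 and 30.8, 41.2 and 41.8 FPKM in shNC. MRPL49 overlaps SYVN1, which was at most 7.42 FPKM in any library. MRPL43 overlaps SEMA4G, which was at 0.137, 32.5 and 0.636 FPKM in the libraries labelled shNAT10 and 0.731, 14.5 and 20.9 FPKM in shNC. Like MRPL43, SEMA4G was lowest in replicate 1 of both groups.

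Other genes of mitochondrial translation were read in the same fit, and none passed. Among mitoribosomal proteins with other names, the 5 tested had a median difference of -0.54, with 1 above and 4 below 0. GADD45GIP1 (mL64) was the most abundant, at 353, 263 and 224 FPKM in the libraries labelled shNAT10 and 542, 377 and 313 FPKM in shNC, with overlap. AURKAIP1 (mS38) stood at 27.6, 23.2 and 0 FPKM against 136, 126 and 112 FPKM, with groups apart (difference -3.83; unadjusted p = 0.00931; limma adjusted p = 0.754).

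Of the assembly factors, 14 of 26 listed genes were tested, 5 above and 9 below 0, with a median of -0.96. RCC1L, which acts in mitoribosome assembly, stood at 0.172, 0 and 18.9 FPKM against 38.8, 35.1 and 55.6 FPKM. Its groups were apart (difference -3.92; limma unadjusted p = 0.0258), whereas MALSU1 overlapped between groups. Of the translation factors and RNA partners, 13 of 17 were tested, 7 above and 6 below 0, with a median of 0.30. TUFM, the mitochondrial elongation factor Tu, stood at 109, 257 and 130 FPKM against 107, 22.3 and 74.9 FPKM. Its groups were apart, with a difference of 1.43 (limma unadjusted p = 0.202). SLIRP, which binds mitochondrial mRNA with LRPPRC, stood at 12.03, 0 and 0.317 FPKM against 69.0, 37.8 and 78.4 FPKM. Its groups were apart the other way (difference -4.54; limma unadjusted p = 0.00895). Of the transcription genes, 3 of 6 were tested, with a median of -1.53. POLRMT, the mitochondrial RNA polymerase, stood at 8.71, 51.1 and 0.652 FPKM against 3.81, 2.61 and 23.6 FPKM, with overlap. TFB2M, its initiation factor, stood at 0, 0 and 0.452 FPKM against 19.8, 29.2 and 36.2 FPKM. The TFB2M groups were apart (difference -4.66; limma unadjusted p = 0.0125). The 13 mitochondrial mRNAs, which the ribosome translates, had 4 differences above and 9 below 0, with a median of -0.31. Their share of fragments was 2.61%, 2.24% and 3.45% against 4.06%, 4.47% and 3.58%.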

How the data were processed

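Inputs of 3 libraries labelled shNAT10 and 3 shNC libraries, paired-end reads of 150 bp, were compared. The authors deposited FPKM values per gene. Columns named sh were assigned to shNAT10 because the NC columns are the other hairpin's, which left 0 columns of samples without an assignment. Per the file headers, the deposited peak table gives a fold enrichment (a ratio), a log2 change between hairpins, a score that is the log10 of its FDR, and a count of motif sites. The submitters' processing notes name cutadapt 2.5, HISAT2 2.1.0 and HOMER 4.10.4, and the builds GRCh38 and GRCm38. The sources used here give no role for these and no counting tool.

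Groups were fitted in R 4.3.3 by limma 3.58.1, using lmFit and a trended eBayes, on log2(FPKM + 1), with a pseudocount of 1, over genes with a mean of at least 1 FPKM, with Benjamini-Hochberg adjustment over all tested genes and a threshold of 0.05. The scale understates the change of low genes. The prior degrees of freedom were 212.6, so SE and p draw mostly on genes of like level. Whole fragments, within 0.001, were recovered from FPKM for 14998 of 15014 genes above 0 and served for depth and the voom alternative. As lengths were sought to give whole numbers, this is a weak check. The scale of each library was the one given by most short or mitochondrial genes. The margin was narrow in some libraries, as in shNAT10 replicate 2, with 37 genes against 35 for the next best scale.

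The members and all lists were chosen with earlier results of these data known. Named members were those past the test, with a deposited peak, among the 5 highest means of MRPL and of MRPS genes, with groups apart (up to 5 per direction), or above 0 in all 6 libraries. From each list of other genes, those past the test or else the 2 most abundant were named. Alternatives were another pseudocount, other filters, TPM, quantile normalization, a robust fit, a replicate block, voom on recovered fragments and leaving out each library. Promoter windows came from RefSeq GRCh38.p14.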

Additional observations from a re-analysis of the deposited data

How the results depend on the processing

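No member passed in any of the 14 settings. Of 355 values of the 26 named members under alternatives, 310 kept their direction and 45 reversed. Over all genes, 20 calls became 0 without a filter (340 at an unadjusted p under 0.05), 10 with a mean of at least 5 FPKM, 133 by voom on recovered fragments, and 1 to 34 with 1 library left out, the 1 arising without any 1 of the shNC libraries and the 34 without shNAT10 replicate 2. The labels do not say whether replicate numbers pair libraries. Correlations of deviations for the replicate numbers were 0.0012, -0.021 and 0.015. With libraries of a group so unlike each other, these values cannot exclude pairing. The replicate block gave 21 calls. The all-gene median of -0.49 moved to -0.74 on the TPM scale and -0.08 after quantile normalization. The MRPS median became 0.33 after quantile normalization. Leaving out 1 library gave -0.68 to 0.17 for MRPS and -0.32 to 0.37 for MRPL. Of the peaks, 5 had a fold of at least 10.

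Directions reversed on the TPM scale for MRPL11 (-0.16), MRPL43 (-0.036), MRPS18A (-0.16), MRPS22 (-0.020) and MRPS9 (-0.037). After quantile normalization they reversed for MRPS11 (0.33), MRPS18A (-0.094) and MRPS35 (0.99), and by voom for MRPL11 (-0.11), MRPS11 (0.052) and MRPS18A (-0.087). The cause was not tested. With 1 library left out, differences ran from -0.64 to 1.12 for MRPL11, -0.73 to 2.34 for MRPL24, -3.08 to 0.25 for MRPL37, -0.34 to 1.02 for MRPL43, -0.29 to 0.14 for MRPL49 and -0.74 to 3.01 for MRPL9. They ran from -1.32 to 1.09 for MRPS11, -0.87 to 2.37 for MRPS15, -0.77 to 1.67 for MRPS18A, -0.51 to 2.26 for MRPS18B and -0.71 to 1.49 for MRPS22. They ran from -0.49 to 3.40 for MRPS34, -0.59 to 0.80 for MRPS35, -0.53 to 2.12 for MRPS7 and -2.04 to 1.74 for MRPS9. Among members above 0 in more than 1 library, 35 had at least 100 fragments in a library labelled shNAT10. Of these, 22 were at 0 in another library of that group. Depth within that group was 1207110 to 1284083 recovered fragments, with FPKM denominators of 1197889 to 1498313, and its part in these zeros was not tested.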
